A study of Mus musculus with 54 samples.

Results

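Lungs of mice that had received bleomycin and then BT2 were compared with lungs of mice that had received PBS, over every gene of the experiment's table. The comparison holds 6 of the 54 libraries of the series, 3 in each group. The BLM_BT2 mice received 3.5 mg/kg bleomycin and, from day 3, 20 mg/kg BT2 by intraperitoneal injection each day for 11 days. The BLM_DMSO mice, whose 3 libraries are set beside the comparison, received the same bleomycin dose and 10% DMSO over the same 11 days. The titles of the PBS_DMSO group include DMSO, while its treatment label and the series' design name only PBS and a normal diet. The mice of all 3 groups were male C57BL/6, wild type and 10 to 12 weeks old, and their lungs were taken on day 14 and carry a single batch number. The labels do not say what BT2 was dissolved in or whether each library was a single mouse, so each p-value measures the spread between these libraries.

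Bleomycin is a DNA-damaging drug that, given into the airways, injures the alveolar epithelium and is used to model lung scarring. Monocyte-derived macrophages enter the injured lung, fibroblasts divide and lay down collagen and fibronectin, and surviving alveolar type 2 cells renew the epithelium. BT2 inhibits BCKDK, the kinase that switches off the enzyme complex committing branched-chain amino acids (BCAA) to breakdown, so it speeds their use. The comparison asks how far lungs treated with BT2 after bleomycin still stood from lungs without bleomycin.

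Of 18151 genes tested, out of 35003 symbols listed, 962 passed (5.3%): 749 were higher and 213 lower in BLM_BT2 than in PBS_DMSO lungs (4.13% and 1.17% of genes tested). The test was limma on log2(TPM + 1), where TPM is a gene's length-scaled share of its library, and a gene passed at a Benjamini-Hochberg adjusted p under 0.05, two-sided. Fold changes below are differences on that log2 scale, which understates the change of low genes, with the standard error (SE). Of the 749, 635 were higher by at least 1 log2 unit (3.5% of genes tested), and of the 213, 145 were lower by at least 1 (0.799%). The libraries of the groups did not overlap for 4730 genes that were higher and 2299 that were lower (26.1% and 12.7%). The median over all genes tested was 0.089, and centring each library on its median moved all fold changes of this comparison by -0.10. In the same fit 5550 genes (30.6%) passed in BLM_DMSO against PBS_DMSO lungs (3132 higher, 17.3%, and 2418 lower, 13.3%), and 2133 (11.8%) in BLM_BT2 against BLM_DMSO lungs (1151 higher, 6.34%, and 982 lower, 5.41%). The 3 comparisons share libraries in pairs, so their values are given side by side without a measure of agreement.

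On the first principal component, which held 48.8% of the variance, the BLM_BT2 libraries lay from -25.6 to 2.18, the BLM_DMSO libraries from 48.9 to 95.9 and the PBS_DMSO libraries from -56.8 to -53.7. BLM_DMSO replicate 1 lay apart from the other libraries of its group, and without it 1629 genes passed between BLM_BT2 and PBS_DMSO lungs. Within the BLM_BT2 group replicate 2 gave the highest value for 630 of the 749 higher genes (84.1%), against 50.6% of all genes tested, and replicate 3 did so for 166 of the 213 lower genes (77.9%), against 20.9%. With 3 libraries a group the number of calls depended on each: it was 295, 355 and 234 without PBS_DMSO replicates 1, 2 and 3, and 491, 248 and 755 without BLM_BT2 replicates 1, 2 and 3. Of 103 passing genes named by rule, 45 kept the call whichever of the 9 libraries was left out (a call that held without any 1 library, below), and none changed direction. Calls against BLM_DMSO lungs were less stable: 13 of 55 named genes kept them without any 1 library, and the total of 2133 became 907 and 4927 without BLM_DMSO replicates 1 and 2 and 334, 1394 and 124 without BLM_BT2 replicates 1, 2 and 3. The total of 5550 between BLM_DMSO and PBS_DMSO lungs was 3303, 3534 and 3492 without PBS_DMSO replicates 1, 2 and 3. A test against BLM_DMSO lungs is therefore printed for those 13 genes, and for most other genes described the BLM_DMSO levels stand beside the others.

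**Figure D1:**
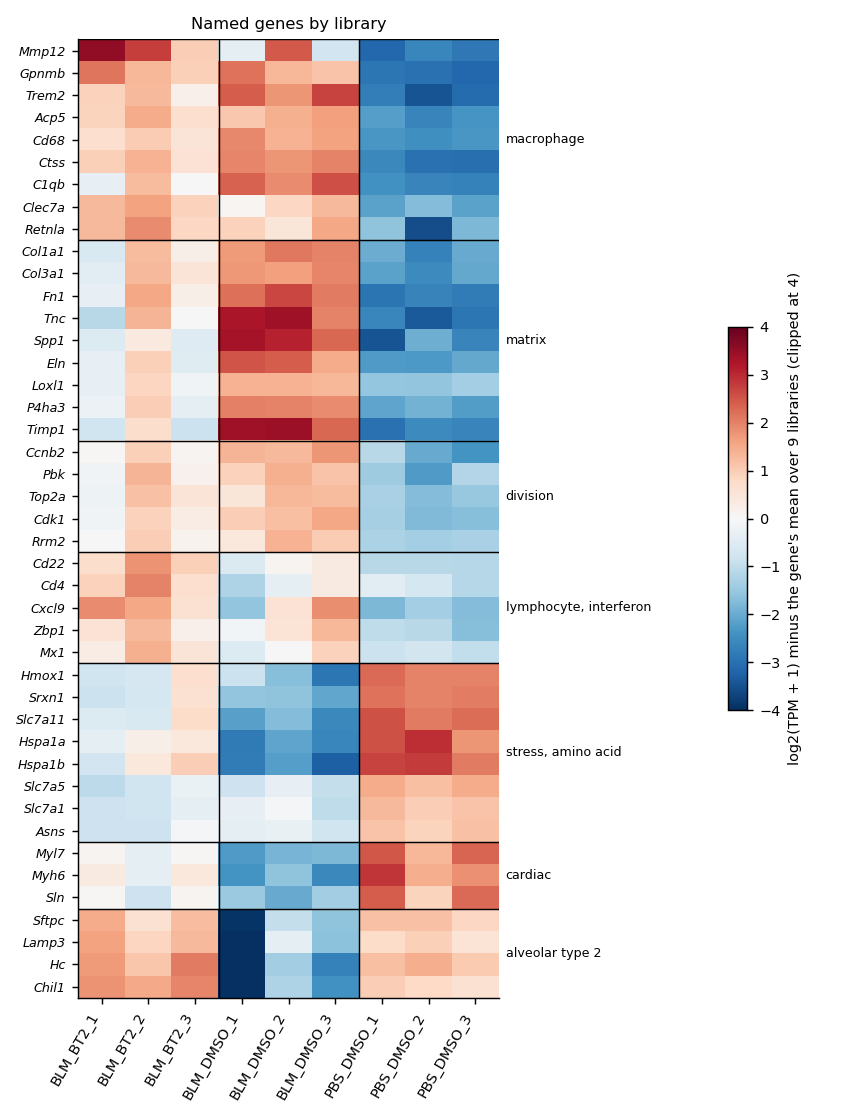
Named genes by library, drawn as log2(TPM + 1) minus each gene's mean over the 9 libraries, with colours clipped at 4. The BLM_BT2 columns stand left, BLM_DMSO in the middle and PBS_DMSO right, and genes are grouped by role. Macrophage and matrix genes are mostly lowest in the PBS_DMSO columns, most stress and cardiac genes are highest there, and BLM_BT2 replicate 2 is the highest of its group for most matrix and division genes.

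Mmp12, the macrophage elastase that cuts elastin, had the largest rise of the genes ranked, with 207, 120.3 and 34.3 TPM in the BLM_BT2 lungs, 12.6, 97.4 and 9.51 TPM in the BLM_DMSO lungs and 1.01, 1.93 and 1.49 TPM in the PBS_DMSO lungs. Its log2 fold change between BLM_BT2 and PBS_DMSO lungs was 5.30 ± 0.83, limma adjusted p = 0.00915. The ranking kept only genes whose BLM_BT2 and PBS_DMSO libraries did not overlap, so this separation holds for every ranked gene by selection. The BLM_BT2 libraries of Mmp12, unlike each other, overlapped the BLM_DMSO libraries. Gpnmb, a glycoprotein of lipid-laden and scar-associated macrophages, had 183, 103 and 79.1 TPM in BLM_BT2, 185, 104 and 90.7 TPM in BLM_DMSO and 4.66, 4.21 and 3.7 TPM in PBS_DMSO lungs (4.48 ± 0.33, limma adjusted p = 0.000347 for BLM_BT2 against PBS_DMSO). The ranges of the BLM_BT2 and BLM_DMSO libraries for Gpnmb nearly coincided. Trem2, a lipid-sensing receptor of macrophages, had 37, 48.1 and 22.2 TPM in BLM_BT2, 105, 67.1 and 129 TPM in BLM_DMSO and 1.93, 0.828 and 1.35 TPM in PBS_DMSO lungs (3.92 ± 0.32, limma adjusted p = 0.000701). For Trem2 the 3 groups did not overlap, and the BLM_BT2 libraries lay between the others.

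**Figure D2:**
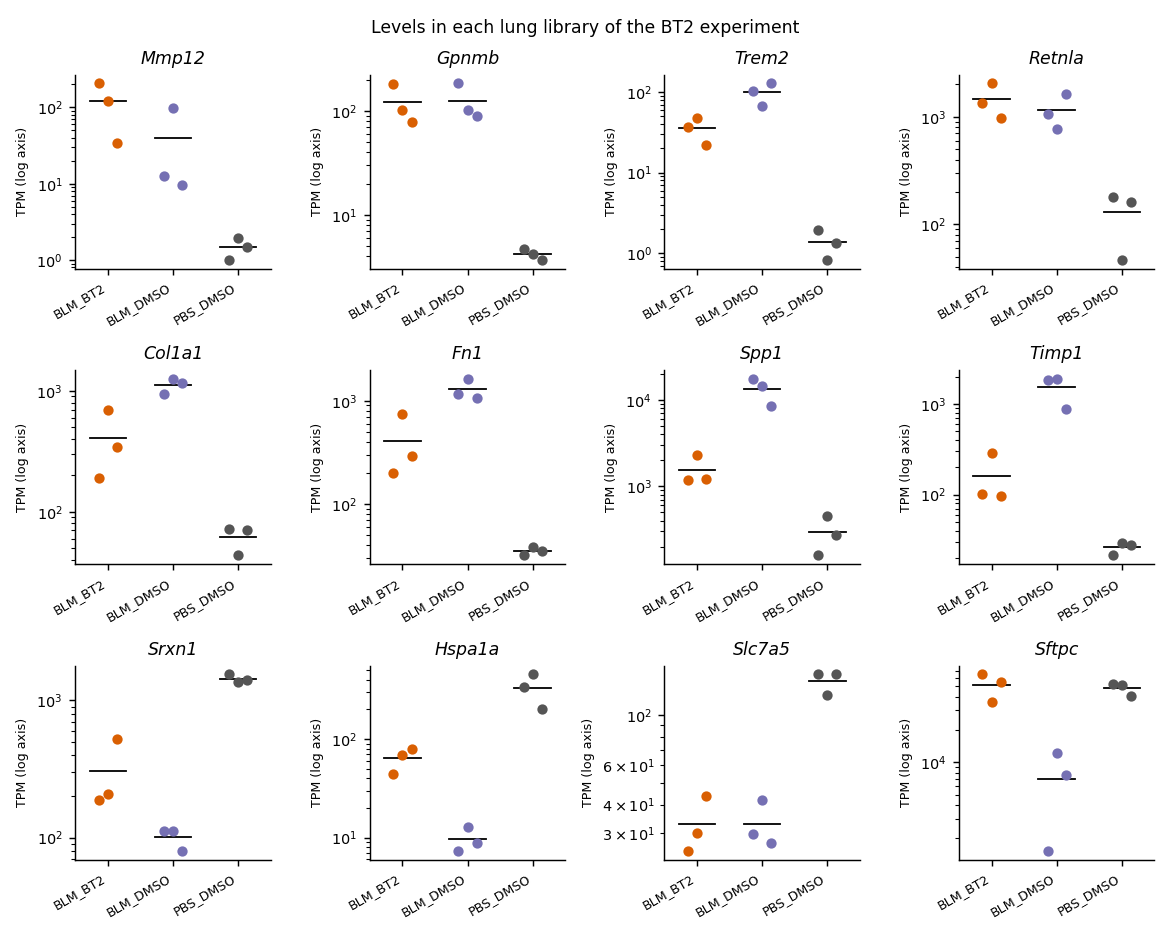
TPM on a log axis in each library of the BT2 experiment for 12 genes, with BLM_BT2 left, BLM_DMSO in the middle and PBS_DMSO right. Points are libraries and lines are group means of 3. Gpnmb and Retnla lie at similar levels in both bleomycin groups, Spp1 and Timp1 lie between the other groups in BLM_BT2, and Sftpc in BLM_BT2 overlaps the PBS_DMSO libraries.

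The recruited and scar-associated macrophage markers held the most passing genes of the marker lists: 12 of 18 rose and 0 fell between BLM_BT2 and PBS_DMSO lungs, with a median log2 fold change of 1.94, against 4.13% and 0.089 over all genes. Without PBS_DMSO replicate 3 the count was 7. Between BLM_DMSO and PBS_DMSO lungs 13 of these 18 rose, with a median of 3.21. Between BLM_BT2 and BLM_DMSO lungs 9 of the 18 were lower, against 5.41% of all genes. That count was 5, 8 and 6 without BLM_DMSO replicates 1, 2 and 3 and 3, 9 and 2 without BLM_BT2 replicates 1, 2 and 3. With only the 6 libraries compared it was 2. Fewer cells of a type and less RNA per cell cannot be told apart in whole lung RNA.

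The 12 ranked rises included Cd68, Ctss, Acp5, Clec4n and Clec7a. Cd68, a lysosomal protein of macrophages, had 259, 324 and 233 TPM in BLM_BT2, 610.4, 429.5 and 494 TPM in BLM_DMSO and 31, 28.6 and 31.3 TPM in PBS_DMSO lungs (3.11 ± 0.17, limma adjusted p = 0.000149). Ctss, the protease that frees MHC class II molecules for antigen loading, had 1959, 2672 and 1519.7 TPM, 3937, 3486 and 4053 TPM and 169, 128 and 125 TPM in those groups, in that order (3.83 ± 0.23, limma adjusted p = 0.000149). Both genes, ranked among those without overlap with the PBS_DMSO libraries, were lower in every BLM_BT2 than in every BLM_DMSO library. Acp5, the tartrate-resistant acid phosphatase of osteoclasts and macrophages, rose by 3.42 ± 0.24 (limma adjusted p = 0.000347), to 81.9, 124 and 69.4 TPM in BLM_BT2 lungs, against 94, 119 and 137 TPM in BLM_DMSO and 8.66, 6.2 and 7.59 TPM in PBS_DMSO lungs. The fungal-sugar receptors Clec4n (dectin-2) and Clec7a (dectin-1) rose by 4.13 ± 0.30 and 3.28 ± 0.30 (limma adjusted p = 0.000347 and 0.00113). Clec7a had 140.1, 178 and 108 TPM in BLM_BT2 lungs, 59.6, 102 and 142 TPM in BLM_DMSO lungs and 12.2, 16.6 and 12.1 TPM in PBS_DMSO lungs, so that the bleomycin groups overlapped. Each call in this paragraph held without any 1 library.

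Secreted products of alternatively activated macrophages and epithelium did not all follow that order. Retnla, secreted under type 2 immune signals, had 1356, 2049 and 984 TPM in BLM_BT2, 1056, 774 and 1617 TPM in BLM_DMSO and 180.0, 46.8 and 159.8 TPM in PBS_DMSO lungs (3.65 ± 0.50, limma adjusted p = 0.00539). Saa3, an acute-phase apolipoprotein, had 61.8, 87.3 and 30.3 TPM, 164, 136 and 153 TPM and 5.29, 5.58 and 3.07 TPM in the same groups (3.34 ± 0.34, limma adjusted p = 0.00186). Retnla in the bleomycin groups overlapped, whereas each BLM_BT2 library had less Saa3 than each BLM_DMSO library. Arg1, the arginase of the same macrophage state, had 7.1, 13.7 and 4.52 TPM in BLM_BT2, 806, 295 and 315 TPM in BLM_DMSO and 1.25, 1.5 and 2.41 TPM in PBS_DMSO lungs. Arg1 did not pass between BLM_BT2 and PBS_DMSO lungs (1.70 ± 0.44, limma adjusted p = 0.0537), although the libraries did not overlap, and was lower in BLM_BT2 than in BLM_DMSO lungs (log2 fold change -5.60 ± 0.44, limma adjusted p = 0.00172). Mrc1, the mannose receptor of alveolar and tissue macrophages, had 32, 51 and 32.4 TPM, 218, 208 and 128 TPM and 15.1, 13.8 and 14.9 TPM in BLM_BT2, BLM_DMSO and PBS_DMSO lungs. Mrc1 was higher in BLM_BT2 than in PBS_DMSO lungs (1.30 ± 0.24, limma adjusted p = 0.0166), a call that ended without BLM_BT2 replicate 2 or PBS_DMSO replicate 1, 2 or 3 (adjusted p up to 0.0701), and lower than in BLM_DMSO lungs (-2.23 ± 0.24, limma adjusted p = 0.00306).

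Among alveolar macrophage markers 3 of 13 rose and 0 fell, while 6 had a negative fold change, 2 of them with an unadjusted p under 0.05 (median 0.673). They were Mrc1, Olr1, the receptor for oxidised lipoprotein (1.69 ± 0.27, limma adjusted p = 0.00963), and Chil3, a chitinase-like protein (1.81 ± 0.35, limma adjusted p = 0.0202). The Chil3 call ended without BLM_BT2 replicate 1 or PBS_DMSO replicate 1, 2 or 3 (adjusted p up to 0.0821), and the count of 3 was 1 without each PBS_DMSO library and 5 without BLM_DMSO replicate 1.

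Of 25 CC and CXC chemokines 8 rose and 0 fell (median 1.17), and of 22 complement genes 7 rose and 0 fell (median 0.671), with 2 negative fold changes in each list. Ccl6, a monocyte attractant of rodents, had 513, 682 and 519.6 TPM in BLM_BT2, 837, 945 and 557 TPM in BLM_DMSO and 119.5, 107 and 106 TPM in PBS_DMSO lungs (2.35 ± 0.21, limma adjusted p = 0.00113). Its neighbour Ccl9 had 89.4, 148 and 81.7 TPM, 201, 279 and 144 TPM and 14.5, 11.9 and 13.9 TPM in the same groups (2.85 ± 0.27, limma adjusted p = 0.00141). In both, the BLM_BT2 libraries stood far above the PBS_DMSO libraries and overlapped the range of the BLM_DMSO libraries. Ccl3, which draws monocytes and T cells, rose by 1.93 ± 0.29 (limma adjusted p = 0.00753), at lower levels, with 4.63, 7.21 and 3.54 TPM in BLM_BT2, 6.02, 8.98 and 6.82 TPM in BLM_DMSO and 0.191, 0.792 and 0.759 TPM in PBS_DMSO lungs. The chemokine count was 4 without each PBS_DMSO library and 5 and 3 without BLM_BT2 replicates 1 and 2.

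The 3 chains of C1q, which binds antibody and dying cells and is made in tissue by macrophages, rose together. C1qb had 322, 974 and 413 TPM in BLM_BT2, 2097, 1526 and 2416 TPM in BLM_DMSO and 74.3, 64.5 and 61.2 TPM in PBS_DMSO lungs (2.91 ± 0.36, limma adjusted p = 0.00412). C1qa rose by 2.64 ± 0.35 and C1qc by 2.85 ± 0.36 (limma adjusted p = 0.0049 and 0.0043). BLM_BT2 replicate 2 had over 2 times the C1qb level of the other BLM_BT2 libraries, and all 3 lay below the BLM_DMSO libraries. C3ar1, the receptor for complement fragment C3a, had 12.8, 33.2 and 16.2 TPM in BLM_BT2, 30.8, 62.5 and 69.4 TPM in BLM_DMSO and 2.55, 2.39 and 2.09 TPM in PBS_DMSO lungs (2.59 ± 0.37, limma adjusted p = 0.00652). The calls of these 4 genes held without any 1 library, and the complement count was 4 without each PBS_DMSO library or BLM_BT2 replicate 2.

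Of 19 interstitial collagens tested, a list that holds fibril-forming chains and others such as Col6a1, 10 rose and 0 fell, with a median log2 fold change of 1.20. Col1a1, a chain of type I collagen, had 191, 699 and 342 TPM in BLM_BT2, 935, 1258 and 1155 TPM in BLM_DMSO and 71.7, 43.7 and 70.8 TPM in PBS_DMSO lungs (2.54 ± 0.40, limma adjusted p = 0.00973). Its partner chain Col1a2 had 142, 432 and 218 TPM, 698, 738 and 913 TPM and 61.2, 49.9 and 62.6 TPM in the same groups (2.02 ± 0.33, limma adjusted p = 0.0108). The 3 groups did not overlap for either gene, with the BLM_BT2 libraries between the others and replicate 2 nearest the BLM_DMSO libraries. Col3a1, which forms type III collagen beside type I, had 169, 573 and 334 TPM in BLM_BT2, 775, 728 and 895 TPM in BLM_DMSO and 52.2, 38.7 and 55.1 TPM in PBS_DMSO lungs (2.70 ± 0.36, limma adjusted p = 0.00532). Col5a2, of the type V collagen that starts fibrils, rose by 2.13 ± 0.34 (limma adjusted p = 0.0101). These 4 calls held without any 1 library, while the count of 10 was 6, 6 and 5 without PBS_DMSO replicates 1, 2 and 3 and 5 without BLM_BT2 replicate 2. Between BLM_DMSO and PBS_DMSO lungs 16 of the 19 rose, with a median of 2.25. Between BLM_BT2 and BLM_DMSO lungs 9 were lower, against 5.41% of all genes. That count was 5, 8 and 7 without BLM_DMSO replicates 1, 2 and 3 and 4, 11 and 0 without BLM_BT2 replicates 1, 2 and 3. With only the 6 libraries compared it was 2.

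Among 30 matricellular proteins and proteoglycans, which sit in the matrix and bind cells or growth factors, 14 rose and 0 fell (median 1.05). Fn1, fibronectin, the early scaffold of a wound, had 201, 741 and 294 TPM in BLM_BT2, 1169.5, 1627 and 1069 TPM in BLM_DMSO and 32.1, 38.6 and 35.5 TPM in PBS_DMSO lungs (3.28 ± 0.40, limma adjusted p = 0.00395). Thbs4, a thrombospondin, had 8.36, 22 and 16.6 TPM, 7.15, 18.5 and 13.7 TPM and 0.356, 0 and 0.133 TPM in the same groups (3.76 ± 0.39, limma adjusted p = 0.00193). Fn1 in the BLM_BT2 libraries lay below every BLM_DMSO library, whereas Thbs4 in the bleomycin groups overlapped. Spp1, osteopontin, a secreted protein of scar-associated macrophages, had 1174, 2272 and 1219.6 TPM in BLM_BT2, 17542, 14548 and 8562 TPM in BLM_DMSO and 159, 448 and 274 TPM in PBS_DMSO lungs. It was higher in BLM_BT2 than in PBS_DMSO lungs (2.46 ± 0.42, limma adjusted p = 0.0128), a call that ended without BLM_BT2 replicate 2 or PBS_DMSO replicate 1 or 3 (adjusted p up to 0.0589). Against BLM_DMSO lungs Spp1 was lower (-3.13 ± 0.42, limma adjusted p = 0.00681), and the 3 groups did not overlap. Tnc, tenascin-C, of wounds and remodelling tissue, rose by 3.04 ± 0.57 (limma adjusted p = 0.0176), and this call ended without BLM_BT2 replicate 2 or PBS_DMSO replicate 1, 2 or 3 (adjusted p up to 0.0704). Its levels were 14.4, 83.4 and 31.6 TPM in BLM_BT2, 316, 345 and 129 TPM in BLM_DMSO and 4.43, 2.2 and 3.4 TPM in PBS_DMSO lungs. The count of 14 was 3, 5 and 4 without PBS_DMSO replicates 1, 2 and 3 and 4 and 8 without BLM_BT2 replicates 2 and 3.

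Of 16 elastic fibre genes 7 rose and 0 fell (median 0.894), and of 27 genes that process and crosslink collagen 5 rose and 0 fell (median 0.483). Fbn1, fibrillin-1, the scaffold on which elastin is laid, had 28.3, 72 and 27.9 TPM in BLM_BT2, 145, 153 and 124 TPM in BLM_DMSO and 7.72, 8.5 and 10.4 TPM in PBS_DMSO lungs (2.01 ± 0.32, limma adjusted p = 0.00989). Eln, elastin itself, had 394, 956 and 353 TPM, 2827, 2627 and 1379 TPM and 100.3, 100.1 and 119 TPM in the same groups (2.26 ± 0.38, limma adjusted p = 0.0121), a call that ended without PBS_DMSO replicate 1 (adjusted p 0.0522). For both, each BLM_BT2 library lay between the ranges of the other groups. Loxl1, which crosslinks elastin and collagen, rose by 1.63 ± 0.26 and P4ha3, a subunit of the collagen proline hydroxylase, by 2.21 ± 0.32 (limma adjusted p = 0.0101 and 0.0072), and both calls held without any 1 library. The elastic fibre count was 2 without each PBS_DMSO library or BLM_BT2 replicate 2, and 4 and 3 without BLM_BT2 replicates 1 and 3. The crosslinking count was 2 without each PBS_DMSO library or BLM_BT2 replicate 2 and 3 without BLM_BT2 replicate 3, and 1 and 2 members fell without BLM_DMSO replicates 1 and 2. Of 24 basement membrane genes 4 rose and 0 fell (median 0.599), a count of 0 without each PBS_DMSO library or BLM_BT2 replicate 2, 1 and 2 without BLM_BT2 replicates 1 and 3, and 9 without BLM_DMSO replicate 2.

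**Figure D3:**
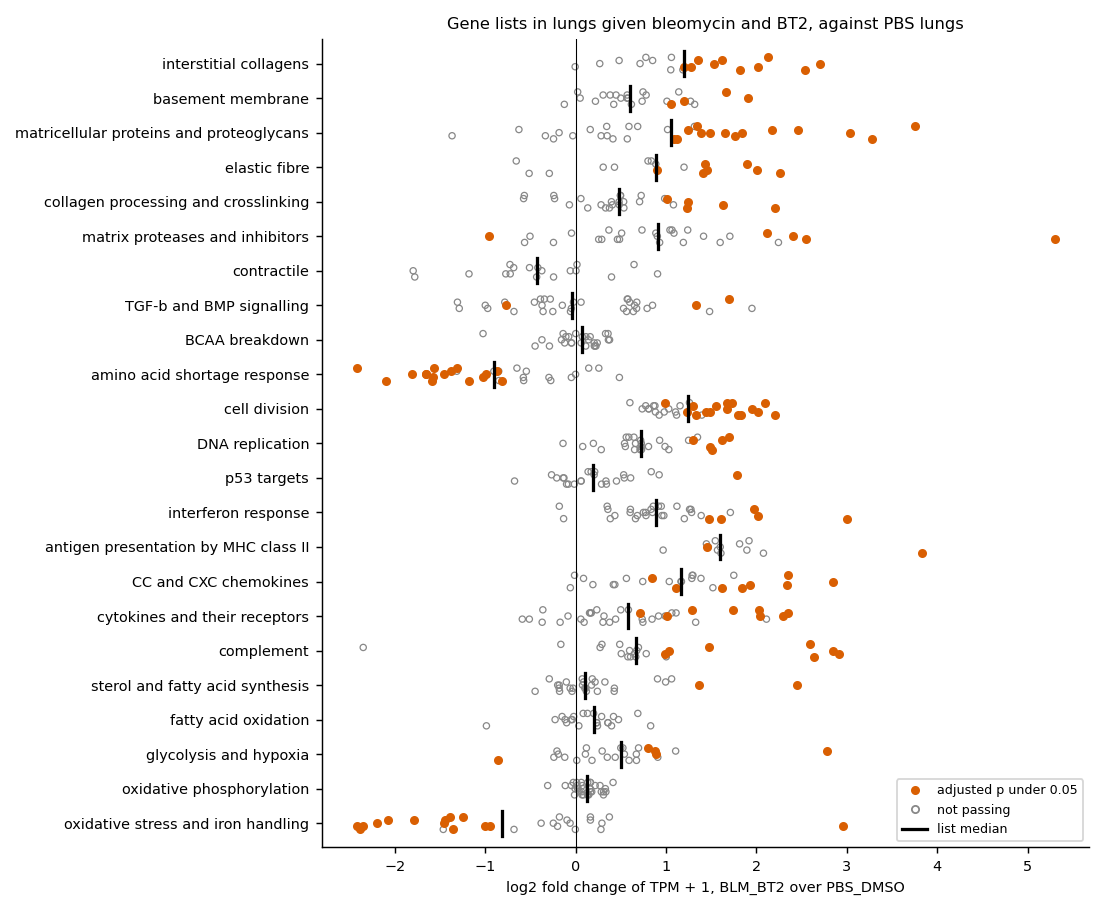
Log2 fold change of each tested member of 23 gene lists in BLM_BT2 over PBS_DMSO lungs. Filled points passed an adjusted p under 0.05 in limma, open points did not, and bars are list medians. Matrix, division, chemokine and complement lists have medians right of 0, the amino acid shortage and oxidative stress lists have medians left of 0, and branched-chain amino acid breakdown and oxidative phosphorylation hold no filled point. Of all genes tested 5.3% passed.

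Among 28 matrix proteases and inhibitors 4 rose and 1 fell. Besides Mmp12 the rises were Ctsk, Mmp14 and Timp1. Ctsk, a collagen-degrading cathepsin, had 362, 221 and 188 TPM in BLM_BT2, 308, 319.7 and 311 TPM in BLM_DMSO and 50.1, 30.2 and 46.8 TPM in PBS_DMSO lungs (2.55 ± 0.26, limma adjusted p = 0.00171). Mmp14, a membrane-bound collagenase, had 92.8, 171 and 74.6 TPM, 192, 256 and 192 TPM and 25.5, 25.7 and 20.1 TPM in the same groups (2.12 ± 0.28, limma adjusted p = 0.0049). Ctsk in the bleomycin groups overlapped and Mmp14 did not. Timp1, an inhibitor of matrix metalloproteases, had 101, 289.9 and 96.4 TPM in BLM_BT2, 1861, 1897 and 880.0 TPM in BLM_DMSO and 21.5, 29.4 and 27.6 TPM in PBS_DMSO lungs. Its rise over PBS_DMSO lungs was 2.40 ± 0.43, limma adjusted p = 0.0153, a call that ended without PBS_DMSO replicate 1 or 3 (adjusted p up to 0.0629). Timp1 was lower in BLM_BT2 than in BLM_DMSO lungs (-3.36 ± 0.43, limma adjusted p = 0.00553), and the 3 groups did not overlap. The single fall, Plaur, the urokinase receptor, had 105, 106 and 119 TPM in BLM_BT2, 241, 189 and 145 TPM in BLM_DMSO and 262, 217 and 173 TPM in PBS_DMSO lungs (-0.96 ± 0.21, limma adjusted p = 0.0299). Plaur was named after its value was seen, and the list held no fall when any 1 of the 6 libraries compared was left out, while its rises numbered 7 without BLM_DMSO replicate 1 or 2.

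Markers of the fibrotic fibroblast rose in 6 of 12 cases with 0 falls (median 1.83), while no contractile gene of 18 passed in either direction (median -0.424). Over all genes 4.13% rose and 1.17% fell, so 0 of 18 says little about the contractile list. Sfrp1, a secreted Wnt-binding protein of activated fibroblasts, had 37.2, 115 and 58.5 TPM in BLM_BT2, 210.3, 211 and 241 TPM in BLM_DMSO and 9.79, 8.22 and 10.3 TPM in PBS_DMSO lungs (2.63 ± 0.33, limma adjusted p = 0.0043). Col1a1, Tnc and Spp1 are also members of that marker list. Its count of 6 was 2, 3 and 2 without PBS_DMSO replicates 1, 2 and 3 and 2 without BLM_BT2 replicate 2. In the contractile list 1 gene had a positive and 8 a negative fold change with an unadjusted p under 0.05, and 3 fell without PBS_DMSO replicate 2 or BLM_DMSO replicate 2. Acta2, the smooth muscle actin of myofibroblasts and muscle, had 193, 372 and 312 TPM in BLM_BT2, 868, 664 and 726 TPM in BLM_DMSO and 391, 259 and 542 TPM in PBS_DMSO lungs (-0.43 ± 0.30, limma adjusted p = 0.497). The BLM_BT2 and PBS_DMSO libraries overlapped for Acta2 and every BLM_DMSO library lay above both. Igf1, a growth factor of macrophages and fibroblasts, had 10.9, 28.2 and 14.5 TPM, 48.2, 39.5 and 52.7 TPM and 3.09, 2.68 and 4.24 TPM in the BLM_BT2, BLM_DMSO and PBS_DMSO lungs (2.03 ± 0.31, limma adjusted p = 0.00803).

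**Figure D4:**
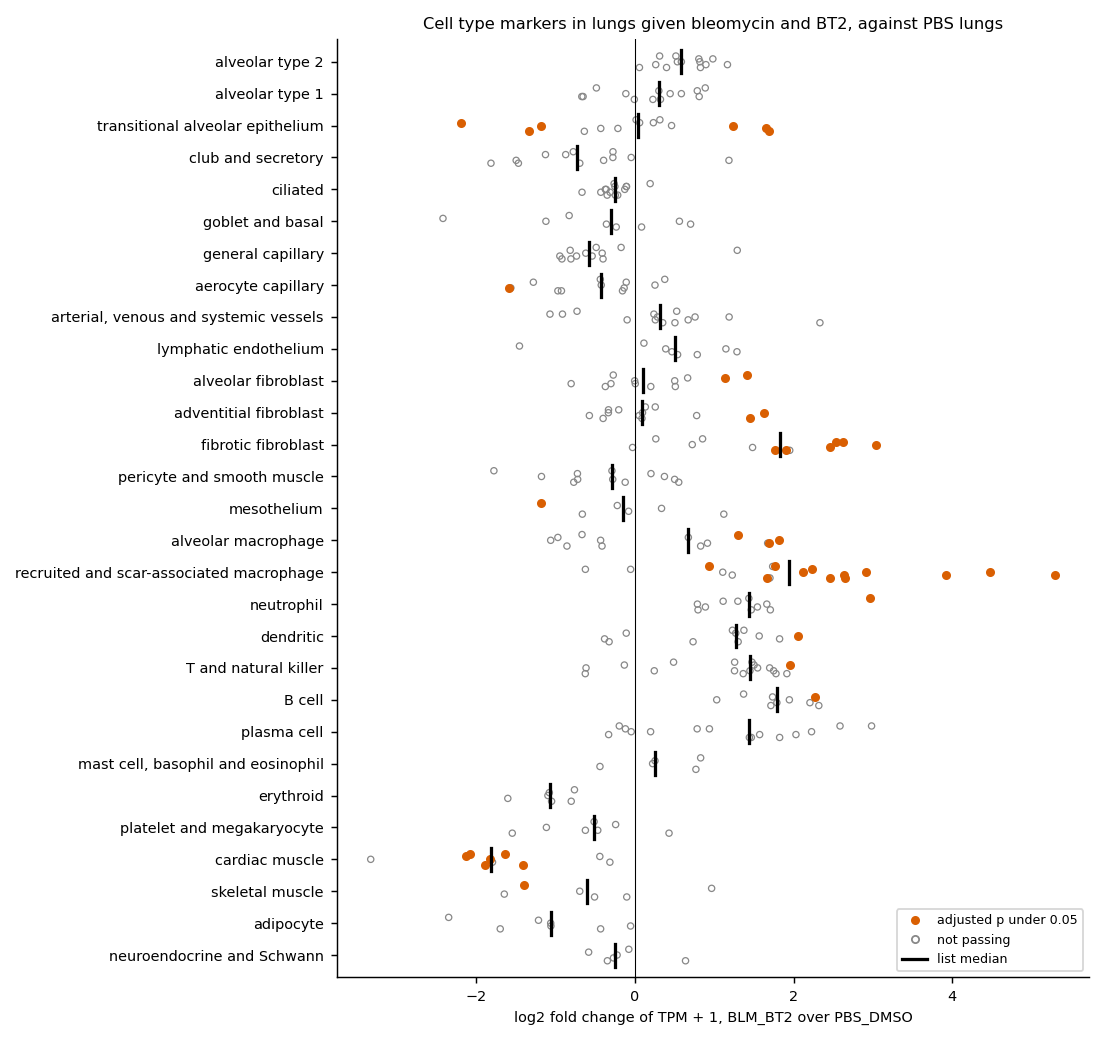
Log2 fold change of each tested member of 29 cell type marker lists in BLM_BT2 over PBS_DMSO lungs, with filled points for an adjusted p under 0.05 in limma, open points for the rest and bars for list medians. Recruited macrophage and fibrotic fibroblast markers hold most of the filled points right of 0, cardiac muscle markers hold 6 filled points left of 0, and alveolar type 2, alveolar type 1, club and ciliated markers hold none. Of all genes tested 5.3% passed.

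Cell division genes were above PBS lungs throughout the list: 16 of 32 rose, 0 fell, and all 32 had a positive fold change (median 1.24). Cdk1, the kinase that drives entry into mitosis, had 5.15, 11.9 and 7.29 TPM in BLM_BT2, 12.5, 14.7 and 19 TPM in BLM_DMSO and 1.69, 1.01 and 1.09 TPM in PBS_DMSO lungs (1.95 ± 0.29, limma adjusted p = 0.00763). Ccnb2, a cyclin that partners Cdk1, had 15.5, 30.3 and 16.4 TPM, 40.3, 38.3 and 53.4 TPM and 6.51, 2.97 and 2.09 TPM in the same groups (2.20 ± 0.35, limma adjusted p = 0.00973). Both calls held without any 1 library, and BLM_BT2 replicate 2 stood above the other BLM_BT2 libraries. Top2a, the topoisomerase that untangles chromosomes, rose by 2.01 ± 0.36 (limma adjusted p = 0.0152), a call that ended without BLM_BT2 replicate 2 or PBS_DMSO replicate 2 or 3 (adjusted p up to 0.0656). Between BLM_DMSO and PBS_DMSO lungs 31 of the 32 rose. The count of 16 was 6, 4 and 5 without PBS_DMSO replicates 1, 2 and 3 and 5 and 9 without BLM_BT2 replicates 2 and 3. Of 27 DNA replication genes 5 rose and 0 fell, a count of 1, 0 and 0 without PBS_DMSO replicates 1, 2 and 3, 0 without BLM_BT2 replicate 2 and 12 without BLM_DMSO replicate 1.

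Mitotic genes share promoter elements, the CCAAT box bound by NF-Y and the cell cycle homology region, so the 250 bases before the start of Ccnb2 and Top2a are shown, from RefSeq on GRCm38.p6, with CCAAT and TTTGAA in capitals, searched on both strands (ATTGG and TTCAAA on the other). Ccnb2 lies at chr9:70421555-70421804 and Top2a at chr11:99024190-99024439, both on the minus strand.
Ccnb2: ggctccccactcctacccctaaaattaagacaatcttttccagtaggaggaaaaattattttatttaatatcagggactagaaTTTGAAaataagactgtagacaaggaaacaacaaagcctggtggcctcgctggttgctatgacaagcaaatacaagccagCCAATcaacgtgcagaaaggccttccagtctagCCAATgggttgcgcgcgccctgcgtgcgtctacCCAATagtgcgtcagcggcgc
Top2a: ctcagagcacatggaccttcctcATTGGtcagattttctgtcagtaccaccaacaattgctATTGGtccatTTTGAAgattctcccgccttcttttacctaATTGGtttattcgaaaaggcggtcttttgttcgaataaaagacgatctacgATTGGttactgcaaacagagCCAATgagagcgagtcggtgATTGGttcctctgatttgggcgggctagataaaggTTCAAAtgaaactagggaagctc
In 28 promoters matched to 26 of the 32 division genes, CCAAT was found in 82.1% and TTTGAA in 35.7%, against 33.8% and 16% of all 32851 promoters of that length. These are letter matches, not measured binding.

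Lymphocyte and interferon genes were mostly higher in BLM_BT2 lungs without passing. All 9 B cell markers tested had a positive fold change (median 1.79), and 1, Cd22, an inhibitory receptor of B cells, passed, with 10.7, 23.7 and 12.7 TPM in BLM_BT2, 3.77, 6.69 and 8.17 TPM in BLM_DMSO and 2.32, 2.31 and 2.22 TPM in PBS_DMSO lungs (2.27 ± 0.32, limma adjusted p = 0.00645). Every BLM_BT2 library had more Cd22 than every BLM_DMSO and PBS_DMSO library, and the call held without any 1 library. The summed level of the B cell markers was 95.2 to 371 TPM in BLM_BT2, 9.90 to 74.5 TPM in BLM_DMSO and 31.6 to 45.96 TPM in PBS_DMSO lungs. The count of 1 was 6 and 4 without BLM_DMSO replicates 1 and 3 and 3 without BLM_BT2 replicate 1. Cd4, the helper T cell coreceptor, had 9.35, 20.4 and 7.65 TPM, 1.29, 3.16 and 5.89 TPM and 2.98, 2.33 and 1.48 TPM in the 3 groups (1.96 ± 0.45, limma adjusted p = 0.0354), and was the only passing gene of 17 T and natural killer markers. That call ended without BLM_BT2 replicate 1 or 2 or PBS_DMSO replicate 1, 2 or 3 (adjusted p up to 0.147), and the list's count was 7 and 6 without BLM_DMSO replicates 1 and 3.

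Antigen presentation genes were likewise above PBS lungs as a list: all 13 had a positive fold change (median 1.60) and an unadjusted p under 0.05, and 2 passed after adjustment, Ctss and the costimulatory Cd86. Cd86 had 10.02, 20.6 and 10.6 TPM in BLM_BT2, 20.2, 23.8 and 26.6 TPM in BLM_DMSO and 4.48, 3.69 and 4.25 TPM in PBS_DMSO lungs (1.45 ± 0.26, limma adjusted p = 0.0156), a call that ended without PBS_DMSO replicate 1, 2 or 3 (adjusted p up to 0.0669). The count of 2 was 1 without each PBS_DMSO library and 11 without BLM_DMSO replicate 1. Of 32 interferon response genes 5 rose and 0 fell (median 0.888). Cxcl9, the T cell chemokine induced by interferon-γ, had 14, 10.8 and 5.14 TPM, 0.335, 5.02 and 13.4 TPM and 0.146, 0.553 and 0.193 TPM in BLM_BT2, BLM_DMSO and PBS_DMSO lungs (3.00 ± 0.72, limma adjusted p = 0.0431). Zbp1, a sensor of left-handed nucleic acid, rose by 1.98 ± 0.39 (limma adjusted p = 0.0206). The Cxcl9 call ended when any 1 of the 6 libraries compared was left out (adjusted p up to 0.166), and the Zbp1 call without BLM_BT2 replicate 1 or 2 or PBS_DMSO replicate 1, 2 or 3 (up to 0.0956). The interferon count was 0 without each PBS_DMSO library and without BLM_BT2 replicate 1 or 2, 2 without BLM_BT2 replicate 3 and 16 without BLM_DMSO replicate 1. Among 35 cytokines and receptors 8 rose and 0 fell, with Igf1 the one of the 4 largest whose call held without any 1 library, and the count was 3, 3 and 2 without PBS_DMSO replicates 1, 2 and 3 and 5 and 2 without BLM_BT2 replicates 1 and 2.

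Among the lists, those with the most falls held amino acid shortage genes, oxidative stress genes and heart muscle genes. Of 31 amino acid shortage genes, which cells switch on through the factor ATF4 to take up and make amino acids, 16 fell and 0 rose, with a median log2 fold change of -0.904. Slc7a5, the carrier that imports leucine and other large neutral amino acids, had 25, 29.95 and 43.8 TPM in BLM_BT2, 29.6, 41.9 and 27 TPM in BLM_DMSO and 151, 123 and 151 TPM in PBS_DMSO lungs (-2.10 ± 0.23, limma adjusted p = 0.00279). Slc7a1, a carrier of arginine and lysine, had 6.55, 6.72 and 9.13 TPM, 9.5, 11.5 and 5.56 TPM and 31.8, 25.3 and 28.5 TPM in the same groups (-1.81 ± 0.25, limma adjusted p = 0.00575). For both, the bleomycin groups overlapped and every PBS_DMSO library had more than 2 times the level of any bleomycin library. Asns, asparagine synthetase, had 27.8, 27.7 and 47.6 TPM in BLM_BT2, 38.6, 40.8 and 28.6 TPM in BLM_DMSO and 112, 93.8 and 115 TPM in PBS_DMSO lungs (-1.65 ± 0.23, limma adjusted p = 0.00577). Slc7a11, which imports cystine for glutathione, had 11.7, 11.2 and 30.1 TPM in BLM_BT2, 3.11, 4.6 and 2.11 TPM in BLM_DMSO and 107, 76.8 and 86.9 TPM in PBS_DMSO lungs (-2.42 ± 0.36, limma adjusted p = 0.00763). Slc7a11 was higher in BLM_BT2 than in BLM_DMSO lungs by 2.02 ± 0.36 (limma adjusted p = 0.0141), and the adjusted p was 0.0561 with only those 6 libraries fitted. The 4 falls against PBS_DMSO lungs held without any 1 library. The count of 16 was 7, 10 and 7 without PBS_DMSO replicates 1, 2 and 3 and 8 without BLM_BT2 replicate 2, and between BLM_DMSO and PBS_DMSO lungs 19 fell.

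ATF4 binds, with a C/EBP partner, a composite element written TGATGNAA, so the 250 bases before the start of 3 genes of the list that hold it are shown, from RefSeq on GRCm38.p6, with each match on either strand in capitals. Slc7a11 lies at chr3:50443614-50443863 and Asns at chr6:7693210-7693459, both on the minus strand, and Chac1, which breaks down glutathione, at chr2:119350992-119351241 on the plus strand.
Slc7a11: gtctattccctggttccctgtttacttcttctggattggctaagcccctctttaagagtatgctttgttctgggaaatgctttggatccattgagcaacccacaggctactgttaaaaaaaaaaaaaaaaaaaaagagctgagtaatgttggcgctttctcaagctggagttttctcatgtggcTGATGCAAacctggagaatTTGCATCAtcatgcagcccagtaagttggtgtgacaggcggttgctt
Asns: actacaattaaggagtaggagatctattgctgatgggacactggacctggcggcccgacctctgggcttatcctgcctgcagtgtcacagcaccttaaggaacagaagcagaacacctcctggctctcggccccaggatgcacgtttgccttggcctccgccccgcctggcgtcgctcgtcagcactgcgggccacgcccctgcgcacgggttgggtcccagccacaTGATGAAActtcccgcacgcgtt
Chac1: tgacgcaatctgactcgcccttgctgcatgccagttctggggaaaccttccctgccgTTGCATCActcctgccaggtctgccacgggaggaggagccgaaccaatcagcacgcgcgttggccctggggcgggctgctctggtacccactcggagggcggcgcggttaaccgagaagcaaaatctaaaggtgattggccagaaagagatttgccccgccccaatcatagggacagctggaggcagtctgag
The element was found in 8 of 31 promoters matched to 27 of the 32 listed genes (25.8%), against 3.45% of all 32851 promoters. Among promoters of the passing members it was found in 4 of 16 (25%), a share like that of the whole list. Atf3, Pycr1 and Vldlr also hold it and did not pass. Chac1 had 23.9, 17 and 35.1 TPM in BLM_BT2, 3.43, 8.62 and 3.94 TPM in BLM_DMSO and 79.9, 95.1 and 54.6 TPM in PBS_DMSO lungs (-1.58 ± 0.35, limma adjusted p = 0.0323), and was named after its values were seen, for its promoter. A match is a description of letters and not a measured site.

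Oxidative stress genes fell against PBS lungs in 13 of 28 cases, with 1 rise (median -0.812). Srxn1, sulfiredoxin, which repairs oxidised peroxiredoxins, had 187, 209 and 520.3 TPM in BLM_BT2, 112, 111 and 80.3 TPM in BLM_DMSO and 1543, 1349.7 and 1411 TPM in PBS_DMSO lungs (-2.39 ± 0.34, limma adjusted p = 0.00639). Hmox1, haem oxygenase, had 734, 801 and 2065 TPM, 709.6, 396 and 172 TPM and 6188, 5124 and 5079 TPM in the same groups (-2.35 ± 0.51, limma adjusted p = 0.0298). For both, BLM_BT2 replicate 3 had over 2 times the level of the other BLM_BT2 libraries and all bleomycin libraries lay below all PBS_DMSO libraries. The Hmox1 call ended without BLM_BT2 replicate 1 or 2 or PBS_DMSO replicate 1, 2 or 3 (adjusted p up to 0.139), and the Srxn1 call held. The single rise, Lcn2, an iron-binding protein of injured epithelium and neutrophils, had 519.8, 465 and 456 TPM in BLM_BT2, 260.2, 322 and 139 TPM in BLM_DMSO and 71.7, 53.6 and 58.1 TPM in PBS_DMSO lungs (2.96 ± 0.27, limma adjusted p = 0.00113), with every BLM_BT2 library highest. The count of 13 falls was 3, 5 and 3 without PBS_DMSO replicates 1, 2 and 3 and 5 and 4 without BLM_BT2 replicates 1 and 2. Between BLM_BT2 and BLM_DMSO lungs 11 of the list were higher, against 6.34% of all genes. That count was 7, 13 and 12 without BLM_DMSO replicates 1, 2 and 3 and 6, 9 and 2 without BLM_BT2 replicates 1, 2 and 3. With only the 6 libraries compared it was 3.

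The heat shock genes Hspa1a and Hspa1b, near-identical copies of the inducible chaperone HSP70 between which reads are uncertain, were lower in BLM_BT2 than in PBS_DMSO lungs and higher than in BLM_DMSO lungs. Hspa1a had 44.5, 69.3 and 79.2 TPM in BLM_BT2, 7.34, 12.8 and 8.71 TPM in BLM_DMSO and 342, 454 and 202 TPM in PBS_DMSO lungs. Its log2 fold change was -2.32 ± 0.32 against PBS_DMSO lungs (limma adjusted p = 0.00588) and 2.62 ± 0.32 against BLM_DMSO lungs (limma adjusted p = 0.00496), and the 3 groups did not overlap. Hspa1b changed by -2.31 ± 0.43 and 2.97 ± 0.43 (limma adjusted p = 0.0168 and 0.00855), and its call against PBS_DMSO lungs ended without BLM_BT2 replicate 2 or PBS_DMSO replicate 1 or 2 (up to 0.0691). PBS groups of the series differed in these genes, in tables normalised separately. Hmox1 ranged from 3705 to 4937 TPM in 3 PBS libraries of the drinking-water experiment and from 70.3 to 170.5 TPM in 4 PBS libraries of the diet experiment. Hspa1a ranged from 52.6 to 96.4 TPM and from 10.7 to 48.9 TPM in those groups. Lungs given bleomycin alone had 122.3 to 230.5 TPM of Hmox1 and 6.36 to 12.4 TPM of Hspa1a in the drinking-water experiment, below its PBS libraries. In the diet experiment they had 332.4 to 934.4 TPM of Hmox1, above its PBS libraries, and 14.25 to 40.2 TPM of Hspa1a, overlapping them. The part that conditions of the PBS lungs had in these falls was not tested.

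The largest of all ranked falls was Adh7, an alcohol dehydrogenase of epithelium that uses retinol, with 8.51, 15.7 and 27.8 TPM in BLM_BT2, 2.06, 1.86 and 11.4 TPM in BLM_DMSO and 191, 64.6 and 174 TPM in PBS_DMSO lungs (-2.97 ± 0.63, limma adjusted p = 0.0279). Its call ended without BLM_BT2 replicate 1 or 2 or PBS_DMSO replicate 1 or 3 (adjusted p up to 0.116). Adm2, a peptide of the adrenomedullin family, had 2.51, 1.58 and 8.58 TPM in BLM_BT2, 0.444, 0.795 and 1.48 TPM in BLM_DMSO and 25.5, 23.9 and 23.8 TPM in PBS_DMSO lungs (-2.52 ± 0.43, limma adjusted p = 0.0121), a call that ended without PBS_DMSO replicate 1 or 3 (up to 0.0554). Fosl1, an AP-1 factor of stress and wound responses, had 1.75, 3.57 and 8.14 TPM in BLM_BT2, 1.91, 3.89 and 1.55 TPM in BLM_DMSO and 23.4, 22.8 and 17.9 TPM in PBS_DMSO lungs (-2.19 ± 0.41, limma adjusted p = 0.0176), a call that ended without BLM_BT2 replicate 2 or PBS_DMSO replicate 1, 2 or 3 (up to 0.0807). Ankrd63, an ankyrin repeat protein, had 1.16, 1.82 and 6.00 TPM, 0.237, 3.61 and 0.113 TPM and 14.4, 18.8 and 18 TPM in the 3 groups (-2.36 ± 0.57, limma adjusted p = 0.0438), a call that ended without BLM_BT2 replicate 1 or 2 or PBS_DMSO replicate 1, 2 or 3 (up to 0.178). For all 4 genes the BLM_BT2 libraries lay below the PBS_DMSO libraries without overlap, which the ranking required. Of the 12 ranked falls 2 were small RNA genes, which poly(A)-selected libraries measure poorly, and they are not described.

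Heart muscle transcripts were lower in BLM_BT2 than in PBS_DMSO lungs: 6 of 10 tested markers fell and 0 rose (median -1.81). Such transcripts reach lung RNA from the muscle sleeves of the pulmonary veins and from heart left on the dissected tissue. Myl7, the atrial myosin light chain, had 141, 98.9 and 135 TPM in BLM_BT2, 26.6, 35.6 and 37.3 TPM in BLM_DMSO and 738, 329.6 and 659 TPM in PBS_DMSO lungs (-2.13 ± 0.29, limma adjusted p = 0.00558), a call that held without any 1 library. Myh6, a cardiac myosin heavy chain, had 31.9, 19.1 and 33.5 TPM, 3.84, 7.47 and 3.33 TPM and 183, 69.1 and 89.6 TPM in the same groups (-1.89 ± 0.39, limma adjusted p = 0.0237), a call that ended without BLM_BT2 replicate 1 or 2 or PBS_DMSO replicate 1 or 3 (adjusted p up to 0.112). The summed marker level was 252 to 365 TPM in BLM_BT2, 105 to 132 TPM in BLM_DMSO and 683 to 1719 TPM in PBS_DMSO lungs. Mb, myoglobin, the oxygen store of heart and slow muscle, had 10.9, 9.41 and 11.1 TPM, 0.676, 0.461 and 1.2 TPM and 105, 28.7 and 86.3 TPM in those groups (-2.51 ± 0.41, limma adjusted p = 0.0106), a call that ended without BLM_BT2 replicate 2 or PBS_DMSO replicate 3 (adjusted p up to 0.0575). The count of 6 was 1 without PBS_DMSO replicate 1 or 3 or BLM_BT2 replicate 2. All 7 adipocyte markers tested also had a negative fold change (median -1.06), and 0 passed, against 5.3% of all genes. Of these 7, 1 had an unadjusted p under 0.05, and 1 fell without PBS_DMSO replicate 2 or BLM_DMSO replicate 1. Their summed level was 154.2, 188.2 and 181.7 TPM in BLM_BT2, 159.3, 144.9 and 204.8 TPM in BLM_DMSO and 423.7, 180.2 and 387.7 TPM in PBS_DMSO lungs, and the cardiac sums of the PBS_DMSO libraries, 1719, 682.5 and 1499 TPM, were likewise lowest in replicate 2. The part of adipose or heart tissue in these values was not tested. The labels name heart tissue in the extraction protocol and lung as the tissue of every sample, and the lung-defining Sftpc, Ager and Scgb1a1, whose values follow, were high in every library. The part of dissection in other falls was not tested.

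No marker of alveolar type 1, alveolar type 2, club or ciliated cells passed between BLM_BT2 and PBS_DMSO lungs in the fit used throughout, though some did in other fits. In that fit 5.3% of all genes passed, so counts of 0 in lists of 12 to 14 genes say little about them. Of 13 alveolar type 2 markers 0 passed in either direction, where 3 positive and 0 negative fold changes had an unadjusted p under 0.05 and the median was 0.584. Without BLM_DMSO replicates 1 and 2 in the estimate of the spread, 3 and 2 of them rose. With only the 6 libraries compared 6 of these 13 rose and 0 fell, and with array weights 7 rose and 0 fell. Sftpc, the surfactant protein C of alveolar type 2 cells, had 64568, 35589.6 and 54474 TPM in BLM_BT2, 1523, 12054 and 7603 TPM in BLM_DMSO and 52778, 51738 and 40787 TPM in PBS_DMSO lungs (0.06 ± 0.69, limma adjusted p = 0.981). The BLM_BT2 libraries of Sftpc overlapped the PBS_DMSO libraries, and every BLM_DMSO library was lower. The sign of this small difference turned with centring, to -0.04. Ager, of the flat alveolar type 1 cells, had 3493, 2718 and 3327 TPM, 1116, 3160.1 and 1039 TPM and 2626, 2637 and 2339 TPM in the 3 groups (0.32 ± 0.38, limma adjusted p = 0.719). Scgb1a1, the secretoglobin of club cells, was named after its values were seen, as a check of the tissue, and had 85226, 48528 and 103918 TPM in BLM_BT2, 18569, 11181 and 21567 TPM in BLM_DMSO and 121259, 103128 and 146086 TPM in PBS_DMSO lungs (-0.70 ± 0.52, limma adjusted p = 0.526). Alveolar type 1, club and ciliated markers gave 0 passing genes of 13, 12 and 14, with 4, 2 and 0 at an unadjusted p under 0.05. Negative fold changes numbered 5, 11 and 13 in these lists, with medians of 0.301, -0.737 and -0.258. Without BLM_DMSO replicate 2, 3 type 1 markers rose, and without BLM_DMSO replicates 1 and 3, 1 and 2 club markers fell. With only the 6 libraries compared 4 type 1 markers rose, while 3 club markers fell and 1 rose. With array weights 4 type 1 markers rose and 1 club marker fell. With a standard error of 0.69 for Sftpc, the data do not show that the groups were alike.

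Against BLM_DMSO lungs all 13 alveolar type 2 markers were higher in BLM_BT2 lungs, where 6.34% of all genes were. That count was 13 without each BLM_DMSO library and 3, 11 and 2 without BLM_BT2 replicates 1, 2 and 3. With only the 6 libraries compared it was 3. Hc, complement C5, which alveolar type 2 cells make, was the largest rise there, with 173, 113 and 224 TPM in BLM_BT2, 1.33, 19 and 7.08 TPM in BLM_DMSO and 122, 145 and 108 TPM in PBS_DMSO lungs (4.51 ± 0.62 against BLM_DMSO, limma adjusted p = 0.00704, and 0.40 ± 0.62 against PBS_DMSO, 0.79). Chil1, a chitinase-like protein, Slc7a10, a carrier of small neutral amino acids, and Lyz1, a lysozyme whose reads may be shared with its copy Lyz2, followed, with 4.30 ± 0.54, 3.99 ± 0.44 and 3.89 ± 0.50 (limma adjusted p = 0.00508, 0.00306 and 0.00553). Against PBS_DMSO lungs none of these 4 passed, with log2 fold changes from -0.53 to 0.95. The largest drops against BLM_DMSO lungs were Arg1, Vsig4, Crct1 and Ereg. Ereg, epiregulin, a growth factor for epithelium, had 1.4, 3.75 and 1.28 TPM in BLM_BT2, 48.2, 44 and 15.8 TPM in BLM_DMSO and 0.71, 0.257 and 0.317 TPM in PBS_DMSO lungs (-3.50 ± 0.43 against BLM_DMSO, limma adjusted p = 0.00496, and 1.06 ± 0.43 against PBS_DMSO, 0.205). Vsig4, a complement receptor of tissue macrophages, had 0.199, 0.213 and 0.608 TPM, 37.6, 20.5 and 19.5 TPM and 0.0987, 0.306 and 0.0979 TPM in the same groups, so BLM_BT2 and PBS_DMSO libraries overlapped under 1 TPM while all BLM_DMSO libraries were at 19.5 TPM or above. Vsig4 entered the test and this ranking only through the BLM_DMSO libraries. Leaving out any of them took it below the filter, so it is not counted among the genes whose call held. Crct1, a small protein of cornified epithelium, had 0.747, 1.79 and 0.76 TPM, 43.5, 20.2 and 14.7 TPM and 0, 0 and 0 TPM in those groups, listed at 0 in every PBS_DMSO library, with a log2 fold change of -3.59 ± 0.37 against BLM_DMSO lungs (limma adjusted p = 0.00306). Crct1 too entered the test and this ranking only through the BLM_DMSO libraries, where it was high, so its test result is a description only. Ereg met the 5 TPM minimum of the ranking only through those libraries.

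Markers of the transitional epithelium, the intermediate between type 2 and type 1 cells after injury, went both ways, with 3 of 14 higher and 3 lower. Sprr1a, a cell envelope protein of stressed epithelium, had 38, 37.8 and 19.97 TPM in BLM_BT2, 68.2, 79.4 and 51.1 TPM in BLM_DMSO and 9.64, 7.52 and 10.3 TPM in PBS_DMSO lungs (1.65 ± 0.27, limma adjusted p = 0.0101). Itgb6, part of the integrin that activates TGF-β, had 29.7, 33.5 and 19.9 TPM, 12.4, 48.1 and 23.3 TPM and 6.33, 8.14 and 8.76 TPM (1.69 ± 0.41, limma adjusted p = 0.0435). Sfn, the epithelial 14-3-3 sigma protein, was lower, with 264, 369 and 404 TPM, 397, 386 and 260.4 TPM and 1176, 707 and 764 TPM in the same groups (-1.34 ± 0.26, limma adjusted p = 0.0194). The BLM_BT2 and BLM_DMSO libraries overlapped for Itgb6 and Sfn. These calls ended without BLM_BT2 replicate 2 for Sprr1a, without BLM_BT2 replicate 1 or 2 or PBS_DMSO replicate 1 or 3 for Sfn and when any 1 of the 6 compared libraries or BLM_DMSO replicate 3 was left out for Itgb6, with adjusted p up to 0.0529, 0.0771 and 0.184. The 3 rises became 1 without each PBS_DMSO library or BLM_BT2 replicate 1 and 0 without BLM_BT2 replicate 2, and the 3 falls became 0 without PBS_DMSO replicate 1 or 3 or BLM_BT2 replicate 2 and 1 without BLM_BT2 replicate 1.

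Genes of branched-chain amino acid breakdown did not pass between BLM_BT2 and PBS_DMSO lungs. Of 27 tested 0 rose and 0 fell, where 4.13% of all genes rose and 1.17% fell, so a count of 0 says little about this list. In it 0 positive and 1 negative fold change had an unadjusted p under 0.05, and 1 gene fell without BLM_DMSO replicate 1 or 2. Bckdk, the kinase that BT2 inhibits, had 40.2, 40.8 and 35.2 TPM in BLM_BT2, 44.4, 43.5 and 56 TPM in BLM_DMSO and 29.5, 35.6 and 32.9 TPM in PBS_DMSO lungs (0.24 ± 0.15, limma adjusted p = 0.45). Ppm1k, the phosphatase that opposes it, had 7.78, 6.76 and 6.55 TPM, 2.51, 6.63 and 6.27 TPM and 8.54, 8.89 and 6.54 TPM in the same groups (-0.16 ± 0.30, limma adjusted p = 0.838). BLM_BT2 replicate 3 of Bckdk lay within the PBS_DMSO range, and the Ppm1k libraries overlapped. The dehydrogenase subunits Bckdha, Bckdhb and Dbt differed by 0.38 ± 0.30, -0.11 ± 0.21 and -0.14 ± 0.19. The aminotransferase genes Bcat1, of the cytosol, and Bcat2, of mitochondria, differed by 0.21 ± 0.23 and -0.05 ± 0.13. Bcat1 had 0.143, 0.491 and 0.178 TPM in BLM_BT2, 1.14, 1.75 and 1.95 TPM in BLM_DMSO and 0.11, 0.0163 and 0.156 TPM in PBS_DMSO lungs. It entered the test only through the BLM_DMSO libraries. At levels under 1 TPM in both groups compared, its small difference on this log2 scale does not show that they were alike. BT2 acts on the protein, and its effect on enzyme activity was not measured here.

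Of 34 TGF-β and BMP signalling genes 2 rose and 1 fell, with a median of -0.035, where 4.13% of all genes rose and 1.17% fell. Besides Itgb6 these were Fstl1, a secreted binding protein of BMPs, with 98.6, 230.1 and 116 TPM in BLM_BT2, 622, 468 and 524 TPM in BLM_DMSO and 51.8, 48.2 and 63.9 TPM in PBS_DMSO lungs (1.33 ± 0.28, limma adjusted p = 0.0281), and Tgfbr3, betaglycan, a coreceptor, with 42.5, 29 and 35.5 TPM, 34.7, 35.2 and 28.5 TPM and 55.5, 72.8 and 55.2 TPM (-0.77 ± 0.19, limma adjusted p = 0.0447). Without each PBS_DMSO library or BLM_BT2 replicate 2, 0 rose and 0 fell, and without BLM_DMSO replicate 2, 4 rose and 4 fell. Of 24 genes listed as p53 targets 1 rose and 0 fell (median 0.189). It was Cdkn2a, a gene of cell senescence rather than one that p53 switches on. Cdkn2a encodes both p16 and p19ARF, which gene-level values do not tell apart. It had 6.56, 9.69 and 2.7 TPM in BLM_BT2, 7.38, 7.49 and 8.91 TPM in BLM_DMSO and 1.25, 0.517 and 1.12 TPM in PBS_DMSO lungs (1.79 ± 0.36, limma adjusted p = 0.0225). That call ended without BLM_BT2 replicate 1 or 2 or PBS_DMSO replicate 1, 2 or 3 (adjusted p up to 0.0904). Cdkn1a, the cell cycle inhibitor p21 that p53 induces, had 504, 725 and 495 TPM in BLM_BT2, 349, 927 and 328 TPM in BLM_DMSO and 429.7, 532 and 389 TPM in PBS_DMSO lungs (0.34 ± 0.36, limma adjusted p = 0.682), and the 3 groups overlapped.

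Mvd, an enzyme of cholesterol synthesis, had 52.4, 55.8 and 44.3 TPM in BLM_BT2, 54.4, 66.7 and 47 TPM in BLM_DMSO and 21.1, 19.2 and 17 TPM in PBS_DMSO lungs (1.37 ± 0.17, limma adjusted p = 0.00434), a call that held without any 1 library. Scd1, which makes monounsaturated fatty acids for membranes and surfactant lipid, had 1406, 1097 and 1188 TPM, 143, 778 and 291 TPM and 203, 236 and 229.7 TPM in the same groups (2.45 ± 0.48, limma adjusted p = 0.0195), a call that ended without BLM_BT2 replicate 1 or 2 or PBS_DMSO replicate 1, 2 or 3 (adjusted p up to 0.0792). Every BLM_BT2 library had more Scd1 than every BLM_DMSO and PBS_DMSO library. These were the 2 rises among 28 sterol and fatty acid synthesis genes (0 fell, median 0.107, with 5.3% of all genes passing), a count of 1 without each PBS_DMSO library and BLM_BT2 replicate 1 or 2, and of 4 without BLM_DMSO replicate 1 or 2. Fatty acid oxidation and oxidative phosphorylation gave 0 calls of 23 and 35, with 4 and 3 genes at an unadjusted p under 0.05. Of 25 glycolysis and hypoxia genes 4 rose and 1 fell (median 0.50), against 4.13% and 1.17% of all genes, and the rises numbered 0 without each PBS_DMSO library or BLM_BT2 replicate 2, 1 without BLM_BT2 replicate 1 and 7 without BLM_BT2 replicate 3. The fall was Slc2a1, the glucose carrier GLUT1, with 55.4, 56.3 and 51.1 TPM in BLM_BT2, 73.8, 88 and 65.5 TPM in BLM_DMSO and 113, 83.3 and 103 TPM in PBS_DMSO lungs (-0.86 ± 0.16, limma adjusted p = 0.0184), a call that ended without BLM_BT2 replicate 1, 2 or 3 or PBS_DMSO replicate 1 or 3 (adjusted p up to 0.0889). Every BLM_BT2 library had less Slc2a1 than every library of both other groups.

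Genes that bleomycin moved in the series' other lung experiments gave a reading from libraries not used in the comparison. In those experiments mice received 1.25 mg/kg bleomycin without BT2, with lungs taken on day 14 (3 libraries a group) or day 21 (4 libraries a group), and 700 genes were higher and 161 lower by at least 1 log2 unit in both. Of the 699 higher genes tested here, 323 were higher and 0 lower in BLM_BT2 than in PBS_DMSO lungs (46.2%, against 4.13% of all genes), with a median of 1.21 and quartiles of 0.829 and 1.67. Of the 161 lower genes, 42 were lower and 0 higher (26.1%, against 1.17%), with a median of -0.947. For BLM_DMSO against PBS_DMSO lungs the counts were 535 higher (76.5%, against 17.3% of all genes) with a median of 1.67, and 138 lower (85.7%, against 13.3%) with a median of -1.99. Between BLM_BT2 and BLM_DMSO lungs 154 of the 699 were lower (22%, against 5.41% of all genes) and 20 higher, and 56 of the 161 were higher (34.8%, against 6.34%) and 1 lower. How these last counts change without a library is not given. All calls of that comparison numbered 124 to 4927 without 1 library and 232 with only the 6 libraries compared. Gpnmb, Mmp12, Clec4n, Fn1 and Thbs4 are among the 699, and Adh7 is among the 161. The 323 were 135, 136 and 121 without PBS_DMSO replicates 1, 2 and 3 and 130 without BLM_BT2 replicate 2. The 42 were 13, 27 and 10 without PBS_DMSO replicates 1, 2 and 3 and 18 and 13 without BLM_BT2 replicates 1 and 2. Doses, days and batches differ between the experiments.

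**Figure D5:**
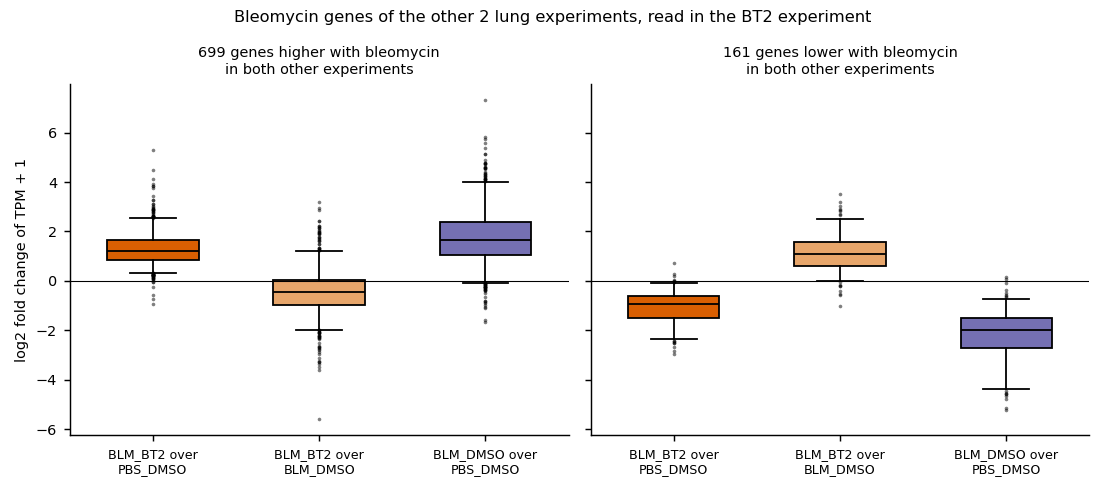
Log2 fold changes in the BT2 experiment of the 699 genes higher (left) and 161 genes lower (right) with bleomycin in both other lung experiments. Boxes span the quartiles with the median as a line, whiskers run from the 5th to the 95th percentile and dots are genes outside them. In BLM_BT2 over PBS_DMSO lungs the higher genes have a median of 1.21 and the lower genes one of -0.947, and in BLM_DMSO over PBS_DMSO lungs these are 1.67 and -1.99.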

How the data were processed

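RNA-seq values of whole lung were taken as deposited. The submitters' processing notes name the build mm39 and, among tools, Trim Galore, HISAT2 and featureCounts, with no role stated. Versions and the annotation are not given in the sources used here. The authors deposited TPM, which sum to the same total in each library, so depth is unknown and no counting interval can be given. The 9 libraries of the BT2 experiment held 23653 to 25628 genes above 0 and 3.67% to 6.37% mitochondrial TPM. Rows without a gene symbol (0.273% to 0.34% of TPM) were left out.

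Genes with at least 1 TPM in at least 3 of the 9 libraries were tested as log2(TPM + 1) in R 4.3.3 with limma 3.58.1, its trend option on, all 3 groups sharing 1 estimate of the spread (6 residual degrees of freedom), and Benjamini-Hochberg adjustment over all genes. The scripts were tested on simulated data. Tables were handled with Python 3.11.15 and pandas 2.3.3. Named genes were the top 12 rises and top 12 falls that passed, averaged at least 5 TPM in either group and showed no overlap, up to 4 passing members of each of 23 gene lists and 29 marker lists, a few fixed genes, and the 4 largest rises and falls against BLM_DMSO lungs, shortened from the end. The comparison, members and lists were chosen with earlier results of these data known. Bleomycin genes of the other experiments were called in their own tables by the same test. Promoters are RefSeq's, on GRCm38.p6, and bear on no coordinates of the files. Alternatives were other pseudocounts and filters, median centring, array weights, only the 6 libraries compared, a replicate block and each library left out.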

Additional observations from a re-analysis of the deposited data

How the results depend on the processing

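Between BLM_BT2 and PBS_DMSO lungs the 962 calls (749 higher, 213 lower) became 404 (313 and 91) with no filter, 2705 (1936 and 769) with only the 6 libraries compared and 3181 (2328 and 853) with array weights, and median centring gave 388 lower. Leaving out 1 library gave 234 to 1629 calls, 203 to 1275 higher and 31 to 354 lower, where leaving out BLM_DMSO libraries was chosen after seeing the data. Between BLM_BT2 and BLM_DMSO lungs the 2133 calls (1151 higher, 982 lower) became 819 (366 and 453) with no filter, 3315 (1663 lower) with median centring, 232 (128 and 104) with only the 6 libraries and 5098 (2790 and 2308) with array weights. Leaving out 1 of the 6 libraries compared gave 124 to 4927, 68 to 3375 higher and 56 to 1552 lower. Between BLM_DMSO and PBS_DMSO lungs it gave 3303 to 7027, 2009 to 3255 higher and 1294 to 3938 lower. Of the bleomycin genes of the other experiments, 77 higher and 10 lower passed when these had to move by at least 2 log2 units there, 502 and 84 passed with only the 6 libraries, an alternative chosen after seeing the data, and 121 to 414 and 10 to 57 without 1 library. Apart from the fewer samples or genes that each alternative holds by construction, the cause was not tested.

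Of 103 passing named genes none changed direction, and calls were lost by 46 with no filter, 10 with the replicate block, 3 and 2 with pseudocounts of 0.1 and 0.5, 2 with centring and 58 without some library. The sign turned only for genes that did not pass. Without 1 library, Slc7a10 ran from -0.95 to 0.00022 (without BLM_BT2 replicate 2), Lyz1 from -0.033 (without BLM_BT2 replicate 3) to 0.32 and Bcat2 from -0.094 to 0.013 (without PBS_DMSO replicate 1). Sftpc was at -0.045 with centring and from -0.13 (without BLM_BT2 replicate 1) to 0.30 otherwise, with -0.063 without PBS_DMSO replicate 3 and -0.0053 without BLM_BT2 replicate 3.

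Deviations of BLM_BT2 and PBS_DMSO libraries with the same number had correlations of -0.067, -0.074 and 0.044 across genes. These values give no sign of pairing by number, but with 3 libraries a group they cannot exclude it. A replicate block gave 889 calls, 720 higher and 169 lower.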

Other observations

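Other cell markers were not described above. Of 11 dendritic cell markers 8 had a positive fold change and 1 passed, Fscn1, the actin bundler of mature dendritic cells, with 46.6, 77.9 and 38.4 TPM in BLM_BT2, 65.8, 105 and 95 TPM in BLM_DMSO and 11.7, 11.3 and 12.3 TPM in PBS_DMSO lungs (2.05 ± 0.26, limma adjusted p = 0.00446). That call held without any 1 library, and 5 markers passed without BLM_DMSO replicate 1 and 2 without BLM_DMSO replicate 3. Of 12 alveolar fibroblast markers 2 rose and 0 fell, 5 had a negative fold change and the median was 0.101, against 0.089 over all genes. The rises were Mfap4, a microfibril protein, and Plin2, a lipid droplet protein, by 1.41 ± 0.32 and 1.13 ± 0.20 (limma adjusted p = 0.0369 and 0.0145). The Mfap4 call ended without each of the 6 libraries compared (adjusted p up to 0.154), and Plin2 without BLM_BT2 replicate 1 or 2 or PBS_DMSO replicate 1 or 3 (up to 0.0758). Plin2 had 223, 206 and 192 TPM in BLM_BT2, 165, 278 and 184 TPM in BLM_DMSO and 98.3, 103 and 81.3 TPM in PBS_DMSO lungs, with both bleomycin groups above the PBS_DMSO libraries and overlapping each other.

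Of 12 aerocyte capillary markers, which mark the gas-exchanging capillary cell, 10 had a negative fold change and 1 fell, Fibin, with 29.9, 31.5 and 70.7 TPM in BLM_BT2, 21.1, 30.7 and 24.5 TPM in BLM_DMSO and 91.8, 158 and 134 TPM in PBS_DMSO lungs (-1.59 ± 0.33, limma adjusted p = 0.0245). The call ended without BLM_BT2 replicate 1 or 2 or PBS_DMSO replicate 2 or 3 (adjusted p up to 0.115), and 2 markers fell without BLM_DMSO replicate 1 or 3 or BLM_BT2 replicate 3. No general capillary marker of 12 passed in limma, where 5.3% of all genes did (1 positive and 3 negative fold changes had an unadjusted p under 0.05, and 1 rose without BLM_DMSO replicate 1 or BLM_BT2 replicate 3). Krt19, a keratin of simple epithelium listed as a mesothelial marker, had 398, 409 and 616 TPM in BLM_BT2, 383, 486 and 539.8 TPM in BLM_DMSO and 1315, 827 and 1079.8 TPM in PBS_DMSO lungs (-1.18 ± 0.24, limma adjusted p = 0.0236), and its call ended without BLM_BT2 replicate 1 or 2 or PBS_DMSO replicate 1 or 3 (up to 0.108).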
